A study of Drosophila melanogaster with 4 samples.

Results

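The peaks described here are those nearest the centromere on the left arms of chromosomes 2 and 3 of Drosophila melanogaster. They were selected by position alone, as peaks that start at or beyond 22.5 Mb on arm 3L or 21.0 Mb on arm 2L, and the separately assembled Het sequences were left out. The rule gave 394 of the 3280 peaks of the deposited list, 230 on 3L and 164 on 2L. Positions are counted from 1 in release 5 of the fly genome, the release to which the sequence names ending in Het belong.

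The peaks come from chromatin immunoprecipitation and sequencing of brains of L3 larvae, the last larval stage. The larvae were of the ato:GFP knock-in line, in which Atonal is made as a fusion with GFP, were kept at 25 °C and had no treatment. The 4 libraries were 2 precipitated with anti-GFP and 2 input libraries, taken from 10% of the sonicated volume of 400 brains. All 4 share the ato:GFP genotype, so the input libraries are no control for the tag, and a line without GFP was not analysed here. The labels do not say whether replicates 1 and 2 came from separate dissections. The brains were used as a tissue, and the cells that make Atonal were not sorted from it. The series gives a single list of peaks, with a score for each. The list has no value for a single library, so no replicate error, no depth and no fold over input can be given for any peak.

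Atonal is a proneural transcription factor of the basic helix-loop-helix class. It binds E-box motifs in DNA as a dimer with Daughterless and is known for founding sense organs and photoreceptors. The cells of the larval brain that make it include dorsal cluster neurons. The base of each arm is where gene-rich euchromatin passes into pericentromeric heterochromatin, which is rich in transposable elements and other repeats and is packed with the protein HP1. Short reads from repeats can align at several places, and the sources used here do not say how such reads were treated. The part of repeated sequence in the values below was not tested. No genome of the release used by the files was at hand, so no peak sequence, motif or gene is given.

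The first comparison asked how peak number changed along each arm, in steps of 100 kb. Peaks were sparse in the last 2 Mb before the start of the selected stretch, with 31 peaks in 20 windows on 3L and 30 peaks in 20 windows on 2L. The median was 1 peak per window on both arms. The last peak before the start lay at 3L:22098468-22098638 (score 13) on 3L and at 2L:20981120-20981258 (score 33) on 2L. The first member lay at 3L:22755633-22755712 (score 18) on 3L and at 2L:21063143-21063269 (score 21) on 2L. The start on 3L therefore fell inside a stretch of 657 kb without a peak, whereas the corresponding gap on 2L was 81.9 kb.

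On 3L a small group of peaks came before a single rise. The windows from 22.5 to 22.7 Mb were empty, those from 22.7 to 22.8 Mb and from 22.8 to 22.9 Mb held 6 and 5 peaks, and the window from 22.9 to 23.0 Mb was empty again. The longest gap between members of 3L lay here, 223 kb between 22812566 and 23035705. From 23.0 Mb on, each of the 15 complete windows held peaks, between 7 and 29 with a median of 12. They held 216 of the 230 members of 3L. The window with most members ran from 23.5 to 23.6 Mb, with 29 peaks, and the last complete window, from 24.4 to 24.5 Mb, held 28. The last member, 3L:24512981-24513238, had a score of 87, the second highest of this arm.

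On 2L the members fell into 2 dense stretches with a nearly empty one between them. The windows from 21.0 to 21.3 Mb held 1 peak each, and that from 21.3 to 21.4 Mb held 3. The windows from 21.4 to 21.5 Mb and from 21.5 to 21.6 Mb then held 25 and 14 peaks. These 39 peaks are called the distal block below. Only 6 peaks lay between 21.6 and 22.2 Mb, and the longest gap between members of 2L, 285 kb between 21938094 and 22222708, closed this stretch. The second rise began at 2L:22222709-22222818, a peak with a score of 13. The 7 complete windows from 22.2 to 22.9 Mb held between 6 and 23 peaks with a median of 16. The 113 members after the longest gap made up the proximal stretch, which ended with 2L:22984341-22984521, a peak with a score of 101.

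**Figure D1:**
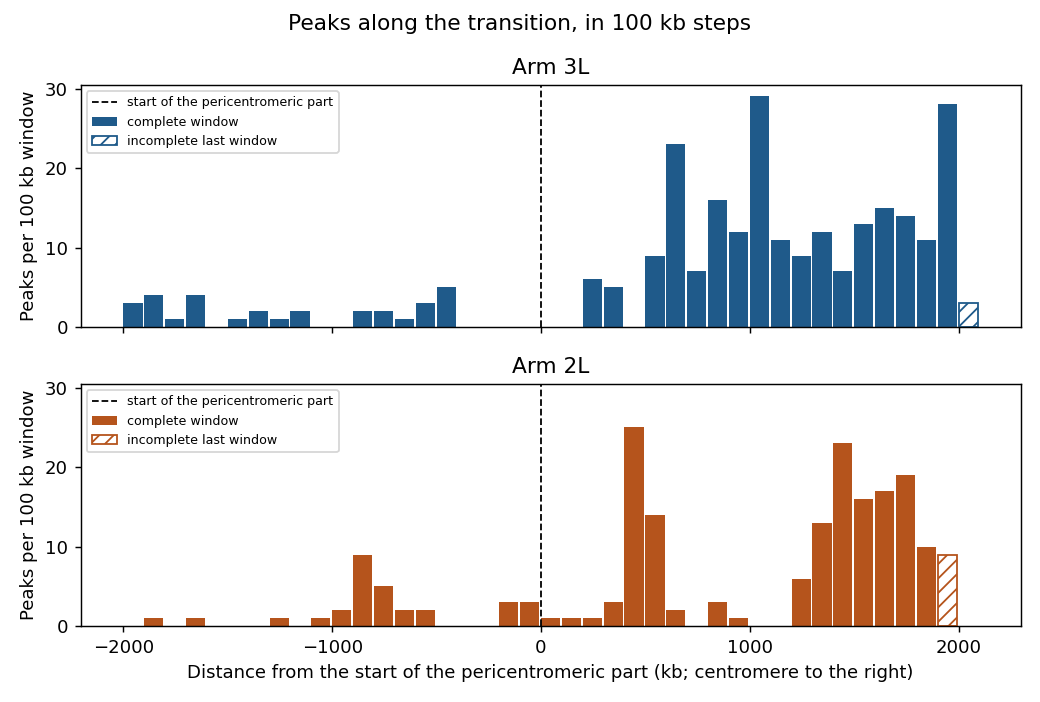
Number of peaks per 100 kb window (vertical axis) against distance from the start of the pericentromeric part in kb (horizontal axis, centromere to the right), for 3L above and 2L below, with the incomplete last window hatched. On 3L the complete windows from 500 kb on hold 7 to 29 peaks, while on 2L a block of 25 and 14 peaks at 400 to 600 kb stands apart from the rise that begins at 1200 kb.

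Set against each other over the whole selected stretch, 3L was the denser arm. It carried 114 peaks per Mb over 2013 kb, against 82.6 peaks per Mb over 1985 kb on 2L, a ratio of 1.38 (exact binomial test, two-sided, p = 0.0015). The test treats peaks of 1 list as independent and says nothing about replicate libraries. The ratio was 1.25 and did not pass the test when peaks less than 1 kb apart were counted once (147 on 3L and 116 on 2L, exact p = 0.0740). With scores above 25 alone the ratio was 1.75 (exact binomial p = 5.01e-04). With both starts moved 500 kb, it was 1.62 towards the centromere (exact p = 1.14e-05) and 1.37 away from it (exact p = 0.0020). The ratio also depended on other choices of where each arm began, made after the windows had been seen. Taken from the first member of each arm, it was 1.53 (exact p = 2.69e-05), with 131 peaks per Mb on 3L and 85.4 peaks per Mb on 2L. Taken after the longest gap of each arm, 3L held 148.22 peaks per Mb (219 peaks) and 2L 148.33 peaks per Mb (113 peaks), a ratio of 0.999 (exact binomial test, p = 1.0000).

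Counted back from the last peak of each arm, the last 700 kb held 101 peaks on 3L and 108 peaks on 2L. That length was set by the proximal stretch of 2L, which was 762 kb long. On 2L the count therefore covers only the dense stretch after the longest gap, and no other length was counted. The 7 steps of 100 kb held between 5 and 27 peaks on 3L and between 9 and 26 peaks on 2L, with a median of 14 on both arms. For comparison, the Het sequence assembled apart from each arm held 158 peaks per Mb on 3LHet and 130 peaks per Mb on 2LHet. The rest of the arms held 11.8 peaks per Mb on 3L and 10.8 peaks per Mb on 2L.

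The peaks of the distal block of 2L had lower scores than those of the proximal stretch and another arrangement, both described here without a test because the block was set apart after its peaks had been counted. Its 39 peaks had a median score of 18 with quartiles of 15 and 22.5, and none scored above 39. The 113 peaks of the proximal stretch had a median score of 25 with quartiles of 18 and 38. Scores above 25, the median of the whole list, belonged to 5 of the 39 peaks (12.8%, 95% Wilson interval 5.60 to 26.7%) in the block and to 55 of the 113 peaks (48.7%, 39.7 to 57.8%) in the proximal stretch. Low scores were not particular to the block, since the other 12 members of 2L before the longest gap had a median score of 21, with 1 above 25. That peak, 2L:21399207-21399278 (score 50), stood in a pair that ended 6186 bp before the first block peak. The edges of the block were set by the 100 kb windows, and gaps inside it reached 36834 bp. The highest score of the block therefore depends on where its edge was set. All intervals here cover counting error only. The peaks of the block lay a median of 2993 bp from one to the next, and 32 of the 38 gaps were 1 kb or longer, so the block was no run of touching calls.

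Distances between the peaks of the block recurred at about 5 kb and its multiples. Among the 173 pairs of block peaks up to 20 kb apart, the fullest bins of 0.5 kb were those from 10.0 to 10.5 kb and from 15.0 to 15.5 kb with 12 pairs each, and that from 5.0 to 5.5 kb with 11 pairs. The bin from 7.0 to 7.5 kb, which is no multiple of 5 kb, came next with 10 pairs, and the median bin held 3.5 pairs. In the proximal stretch of 2L and among the members of 3L, the fullest bins were instead among the shortest distances. On 3L the fullest was that from 0.5 to 1.0 kb with 53 pairs. In the proximal stretch of 2L the bins from 0.5 to 1.0 kb and from 1.0 to 1.5 kb tied with 34 pairs each.

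The base of 2L is known to carry the tandem cluster of the replication-dependent histone genes, in which the genes for the core histones and the linker histone H1 repeat as a unit. In the RefSeq gene table of release 6, all 111 genes named for the families His1 (23 genes), His2A (20), His2B (23), His3 (23) and His4 (22) were on 2L. The median distance from 1 His1 gene to the next was 5045 bp (22 distances, from 4843 to 14041 bp). Of the pairs of block peaks, 33 of 173 (19.1%) lay within 200 bp of 1, 2 or 3 such units, and 8 (4.62%) lay within 200 bp of the points midway between units. On the same count, 34 of 882 pairs of 3L members (3.85%) lay at whole units and 48 (5.44%) midway. In the proximal stretch of 2L, 32 of 564 pairs (5.67%) lay at whole units and 24 (4.26%) midway. Most of the bin from 7.0 to 7.5 kb lies outside both counts. Pairs share peaks and are not independent. The unit was compared after the distances had been seen, so the count of the block at whole units in part restates its fullest bins. In release 6 the histone genes spanned 124.2 kb, while the block peaks lay from 21405725 to 21593858 in release 5. Coordinates were not carried from release 6 to release 5, so whether the block lies on the histone genes was not tested.

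**Figure D2:**
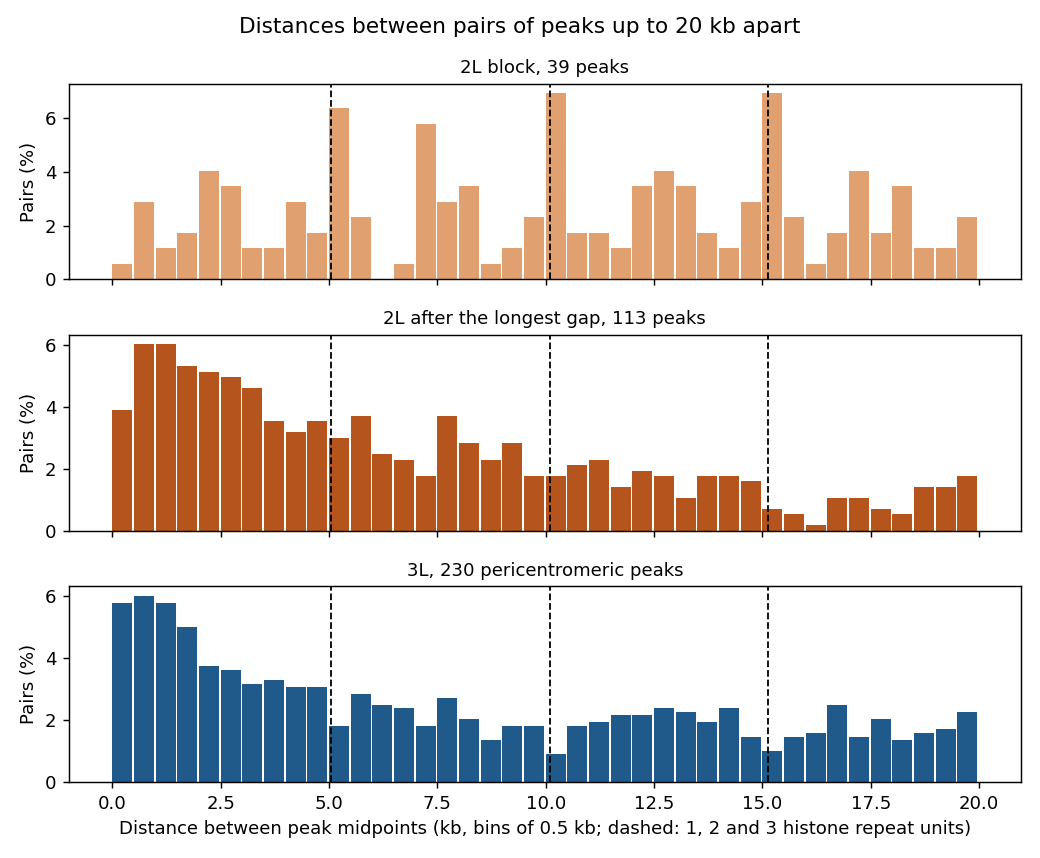
Percent of all pairs of peak midpoints (vertical axis) in bins of 0.5 kb of their distance in kb (horizontal axis, up to 20 kb), for the 39 peaks of the distal block of 2L, the 113 peaks of its proximal stretch and the 230 members of 3L. Dashed lines mark 1, 2 and 3 times the median His1 distance of 5045 bp, where the block has its 3 fullest bins (11, 12 and 12 pairs) and the other groups do not; the bin of the block from 7.0 to 7.5 kb (10 pairs) lies between the lines.

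The next comparison asked whether the score, which the selection did not use, differed between the arms. On 3L scores had a median of 24 (quartiles 17 and 36, range 13 to 100), and on 2L a median of 22 (quartiles 16 and 33, range 13 to 132). Scores above 25 were held by 108 of 230 peaks (47.0%) on 3L and by 61 of 164 peaks (37.2%) on 2L, which did not pass the test (odds ratio 1.49, Fisher's exact test, two-sided, adjusted p = 0.1104 over 14 such tests). With the proximal stretch of 2L alone, the shares were 47.0% on 3L and 48.7% on 2L. Counting peaks less than 1 kb apart once, by the highest score of each run, gave 58.5% on 3L and 41.4% on 2L (adjusted exact p = 0.0236). Taking the highest score raises the share by construction where more peaks stand in runs, so this value partly restates clustering. In the whole list 47.6% of the peaks scored above 25.

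Rank by rank, the 5 highest scores of 3L lay below those of 2L. On 3L the 5 highest were 3L:23792342-23792465 (score 100, width 124 bp), 3L:24512981-24513238 (score 87, 258 bp), 3L:24108140-24108213 (score 85, 74 bp), 3L:23915437-23915591 (score 81, 155 bp) and 3L:24050117-24050405 (score 80, 289 bp). The scores of 3L went on without a step, since the sixth was 78. On 2L the 5 highest belonged to the peaks 2L:22392387-22392458 (score 132, 72 bp), 2L:22657912-22658088 (score 123, 177 bp), 2L:22519774-22519844 (score 121, 71 bp), 2L:22984341-22984521 (score 101, 181 bp) and 2L:22412816-22412895 (score 94, 80 bp). All 5 lay in the proximal stretch, and the sixth score of 2L was 67. Scores of 100 or more were held by 1 peak on 3L, 4 peaks on 2L and 37 peaks of the whole list. Scores of 60 or more were held by 14 of 230 peaks on 3L, 9 of 164 peaks on 2L and 232 of the 3280 peaks of the whole list.

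**Figure D3:**
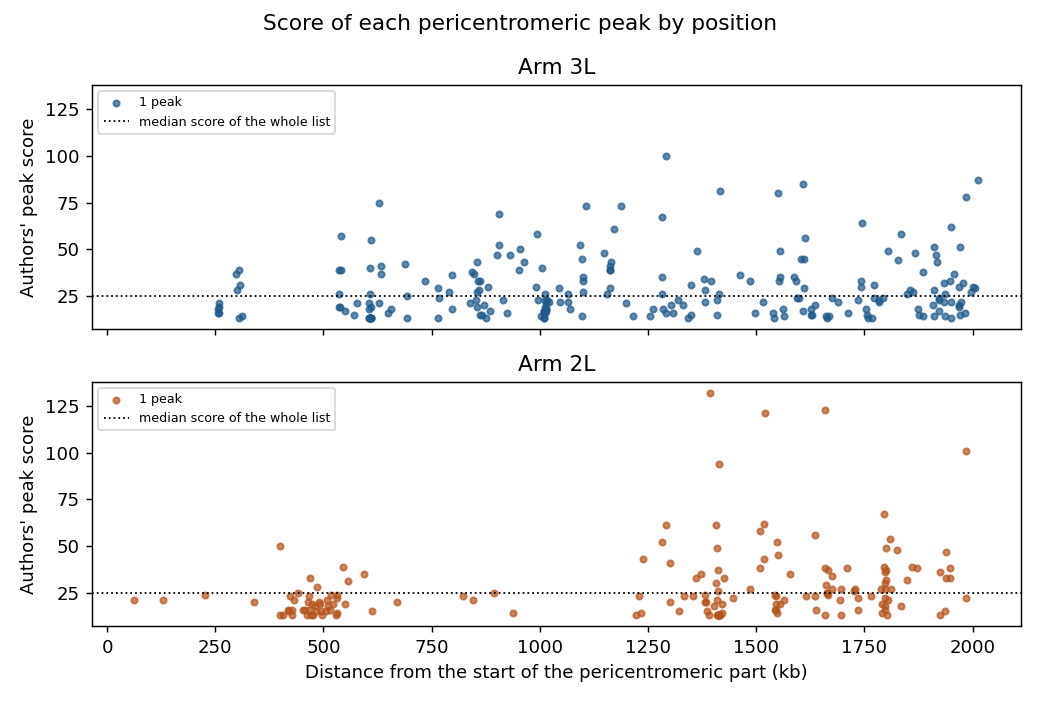
Authors' score of each member (vertical axis) against distance from the start of the pericentromeric part in kb (horizontal axis), for the 230 peaks of 3L above and the 164 peaks of 2L below, with the median of the whole list, 25, as a dotted line. The 39 peaks of the distal block of 2L, at 400 to 600 kb, reach no more than 39, with a peak of score 50 just before its edge. The 4 peaks of 2L with scores of 100 or more lie beyond 1300 kb.

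Along the dense stretches the score varied from window to window, and no trend was tested. On 3L the median score per complete window ranged from 18 to 45 between 23.0 and 24.5 Mb. The windows from 23.4 to 23.5 Mb and from 23.6 to 23.7 Mb had medians of 45 and 41, with 9 of 12 and 10 of 11 peaks above 25. The window between them, with most members, had a median of 21. On 2L the median ranged from 18 to 33 between 22.2 and 22.9 Mb, with the lowest value in the window from 22.4 to 22.5 Mb, where 10 of 23 peaks had the lowest score of 13.

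Against the rest of the same arm, the share of scores above 25 was 47.0% against 37.7% on 3L (odds ratio 1.46, Fisher's exact test, adjusted p = 0.0891) and 37.2% against 37.2% on 2L (odds ratio 1.00, adjusted p = 1.0000). Neither passed. With each run on 3L counted once by its highest score, the shares were 58.5% against 38.1% (adjusted exact p = 7.69e-04), a setting that by construction raises the share of the members, which stand in runs more often. Against the Het sequence of the same arm, the members scored above 25 less often on 3L, with 47.0% against 57.3% on 3LHet (odds ratio 0.659, adjusted exact p = 0.0455). That call did not hold without the longest runs of members, where the share on 3L was 51.5% (adjusted exact p = 0.3385), nor with peaks less than 1 kb apart counted once (58.5% on 3L and 66.4% on 3LHet, adjusted exact p = 0.1749), nor with the start moved 500 kb towards the centromere (47.5% on 3L, adjusted exact p = 0.0801). The longest runs were left out of the members but not of 3LHet. Of their 28 peaks on 3L, 10 had the lowest score, so the share rose in part by construction. On 2L the share above 25 was 37.2% against 56.2% on 2LHet, with 48 peaks there, and did not pass (odds ratio 0.461, adjusted exact p = 0.0576).

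Members lay close together more often than peaks of the rest of the arm. Another peak lay less than 1 kb away for 120 of 230 members (52.2%) against 45 of 265 other peaks (17.0%) on 3L (odds ratio 5.33, Fisher's exact test, adjusted p = 1.02e-15). On 2L this held for 73 of 164 members (44.5%) against 37 of 226 other peaks (16.4%; odds ratio 4.10, adjusted exact p = 1.22e-08). A denser stretch has more close neighbours by construction, and neighbours are not independent, so these p-values are too small. The difference between the arms did not pass (52.2% on 3L and 44.5% on 2L, odds ratio 1.36, adjusted exact p = 0.2135), and in the proximal stretch of 2L the share was 52.2%. For comparison, the share was 42.2% in the whole list, 52.4% on 3LHet and 25.0% on 2LHet. The median distance to the nearest peak was 930.5 bp for members on 3L and 1255 bp for members on 2L.

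Grouping peaks less than 1 kb apart turned the 394 members into 263 units, of which 201 were single peaks and 62 were runs. On 3L there were 37 runs, 20 of them pairs and 15 of 3 to 5 peaks. On 2L there were 25 runs, 20 of them pairs and 3 of 3 to 5 peaks. Each arm had 2 runs of 8 or more peaks, which held 28 members (12.2%) on 3L and 22 members (13.4%) on 2L.

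The long runs held a large part of the lowest scores. On 3L a score of 13 was held by 10 of the 28 peaks in long runs (35.7%) and by 10 of the other 202 (4.95%). On 2L it was held by 10 of 22 (45.5%) and by 14 of the other 142 (9.86%). Outside the long runs the median score was 26 on 3L and 23 on 2L, and inside them it was 17 on both arms. The long runs of an arm differed in this. On 2L all 10 peaks at 13 were in 2L:22410255-22415798 (median score 13), while 2L:22796732-22800218 had a median of 30. On 3L the run 3L:23105691-23110948 held 8 peaks at 13 and 3L:23508546-23514520 held 2. In the whole list 8.78% of the peaks had a score of 13. Over all members of 2L the lowest score was held by 14.6%, against 7.52% in the rest of the arm, which did not pass (odds ratio 2.11, Fisher's exact test, adjusted p = 0.0685). On 3L it was 8.70% against 6.79% (odds ratio 1.31, adjusted exact p = 0.5377), and between the arms 8.70% on 3L and 14.6% on 2L (odds ratio 0.556, adjusted exact p = 0.1164).

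The 4 long runs were of unlike make. The run 3L:23105691-23110948 had 14 peaks over 5.26 kb, of which peaks covered 64.3%, with gaps of 87 to 418 bp. It held the 3 widest members of 3L, 3L:23109484-23110087 (604 bp), 3L:23108751-23109344 (594 bp) and 3L:23107817-23108332 (516 bp), all with a score of 13. At its centromere end stood a narrow peak of 90 bp with a score of 55. The run 2L:22410255-22415798 had 13 peaks over 5.54 kb, of which 48.7% was covered. It held the second widest member of 2L, 2L:22413408-22413831 (424 bp, score 13), and also the peak of 80 bp with a score of 94. In both of these runs the widest peaks had the lowest score and the highest score belonged to a narrow peak.

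The other long runs were more even. The run 3L:23508546-23514520 had 14 peaks over 5.98 kb with scores from 13 to 26, and 31.2% of it was covered. The run 2L:22796732-22800218 had 9 peaks over 3.49 kb with a median score of 30, none at the lowest score and 6 above 25. The widest member of 2L, 2L:22789344-22789814 (471 bp, score 14), lay outside the long runs, as did the third widest, 2L:21494994-21495362 (369 bp, score 15), which belonged to the distal block. The list does not tell separate sites in a run from the fragments of 1 wide region, and this was not tested.

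**Figure D4:**
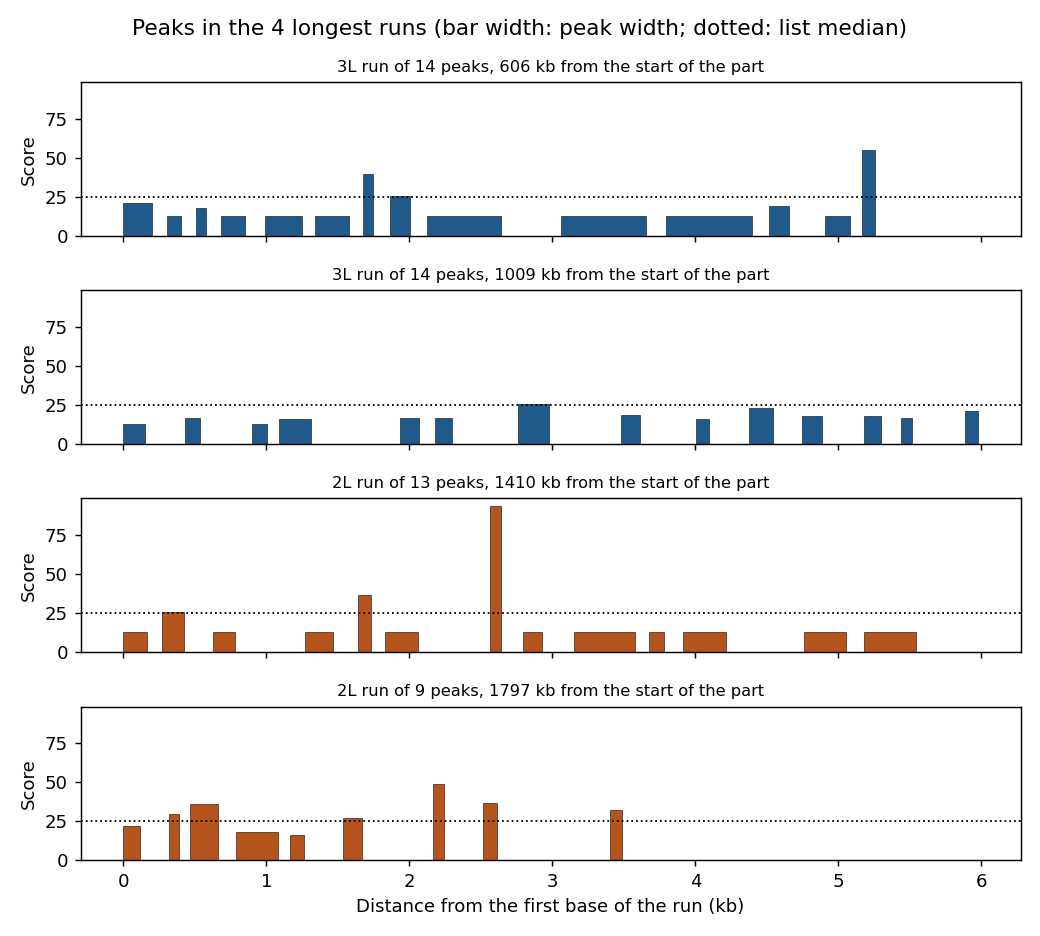
Score (vertical axis) of each peak in the 4 runs of 8 or more members against distance from the first base of the run in kb (horizontal axis), with the width of each bar drawn as the width of the peak and the list median of 25 dotted. The first run of 3L (14 peaks) shows wide bars at 13 with narrow bars at 40 and 55. The run of 13 peaks on 2L shows wide bars at 13 with narrow bars at 37 and 94, while the other runs stay between 13 and 49.

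Members were somewhat wider than peaks of the rest of the arm on 3L. The median width was 119 bp against 106 bp on 3L and 118 bp against 105 bp on 2L. More than 110 bp, the median of the whole list, was reached by 132 of 230 members (57.4%) against 115 of 265 other peaks (43.4%) on 3L (odds ratio 1.76, Fisher's exact test, adjusted p = 0.0102). On 2L it was reached by 88 of 164 members (53.7%) against 105 of 226 other peaks (46.5%), which did not pass (odds ratio 1.33, adjusted exact p = 0.2323). Whether the effect differed between the arms was not tested, and the shares of members, 57.4% on 3L and 53.7% on 2L, did not differ past the threshold (odds ratio 1.16, adjusted exact p = 0.5377). Among peaks with scores above 25 the difference on 3L did not pass (52.8% against 45.0%, adjusted exact p = 0.4049). These tests treat peaks as independent, though 120 of the 230 members of 3L stood in runs, so the p-values describe the list only.

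Score and width were weakly related within the members. Spearman's rho was -0.0574 on 3L (230 peaks) and -0.195 on 2L (164 peaks), given as a description because peaks are not replicates. Without the longest runs of each arm rho was 0.0344 on 3L and -0.0913 on 2L. In the rest of the arms rho was 0.0470 on 3L and 0.100 on 2L. Together the peaks covered 1.54% of the selected stretch on 3L and 1.10% on 2L, against 0.143% of the rest of 3L and 0.135% of the rest of 2L.

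**Figure D5:**
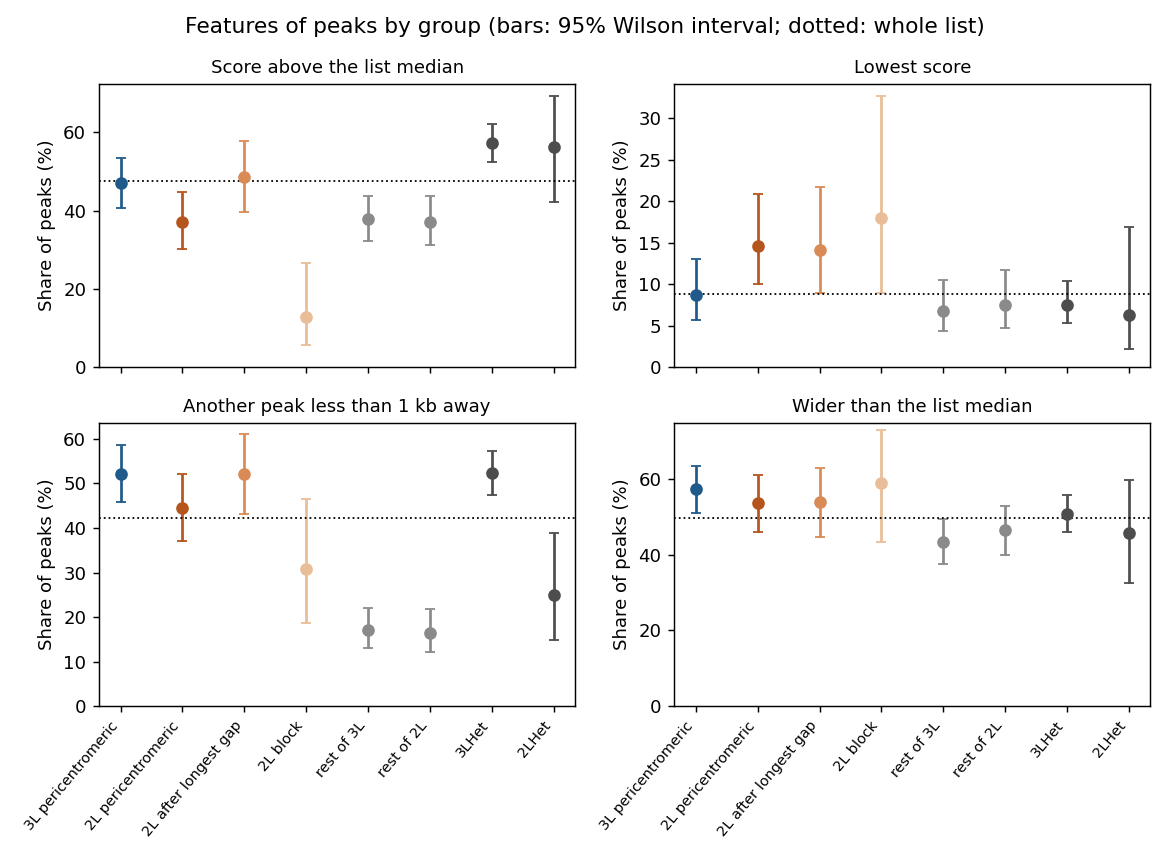
Share of peaks in percent (vertical axes) with a score above 25, with the lowest score of 13, with another peak less than 1 kb away and with a width above 110 bp, for the members of each arm, the proximal stretch and the distal block of 2L, the rest of each arm and the Het sequence of each arm (horizontal axes). Points are shares, bars are 95% Wilson intervals for counting error and dotted lines are the whole list. The share with a close neighbour is 52.2% and 44.5% among members of 3L and 2L, against 17.0% and 16.4% in the rest of these arms.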

How the data were processed

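The deposited file holds the authors' peaks of the whole series, each with a whole-number score of unknown scale. The score was used only to rank and filter peaks within the list. Per the submitters' processing notes, Bowtie2 2.2.1 was the aligner. The sources used here do not give the genome build, peak caller and threshold, the use of the input or any pooling.

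Members, lists and tests were chosen with earlier results of these data known. Arm length was counted to the end of the last peak, so densities are upper bounds. Shares were compared by Fisher's exact test (scipy 1.17.1), two-sided, with Benjamini-Hochberg adjustment over 14 tests at 0.05 (statsmodels 0.14.6), and density by an exact binomial test. Both treat peaks of 1 list as independent, which peaks in runs are not, and say nothing about replicate libraries. Both were tested on simulated data. The text names, on each arm, the 5 highest scores, the 3 widest members, runs of 8 or more members, the fullest window, the longest gap, the first and last member and the peaks beside the start. The distal block is the adjoining windows of 2L with 10 or more peaks before the longest gap. That choice and the histone comparison were made after the data were seen. No library has its own column, so pooled peaks were compared and read depth was not analysed here. Alternatives varied score, start, runs, windows and distances.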

Additional observations from a re-analysis of the deposited data

How the results depend on the processing

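Of 95 values computed under alternatives for 21 results, 73 were counted as unchanged. For a result with a test, this meant the same direction and the same side of the threshold. For a result without a test, it meant a value within 1.5 times the value as reported. For the fullest window this compared the number of peaks per 100 kb and not the place. Windows of 2L shifted by 50 kb therefore counted as unchanged, although the fullest one moved. For the 3L over 2L density, counting peaks less than 1 kb apart once gave 1.25 and less than 10 kb apart 1.23 (exact binomial p = 0.3493), and both arms after their longest gap gave 0.999. Leaving out the 2L members before the gap while 3L was kept from its first member, its own gap included, gave 0.882. Taking each arm from its first member gave 1.53. Odds ratios follow, each against its main value in the report. Counting peaks less than 1 kb apart once gave 2.00 for scores above 25 on 3L over 2L, 2.29 for 3L members over the rest of 3L and 0.713 over 3LHet. It gave 0.875 (2L) and 0.548 (3L) for the lowest score over the rest of the arm. These follow in part from taking the highest score of each run. Leaving out the longest runs (2 of 14 peaks on 3L, 1 of 13 on 2L) gave 1.70 for scores above 25 on 3L over 2L (now passing, adjusted exact p = 0.0491), 1.75 over the rest of 3L (now passing, 0.0163), 0.790 over 3LHet (no longer passing) and 0.715 for the lowest score over the rest of 3L. The runs were left out among the members alone, and those of 3L held 10 of 28 peaks at the lowest score. The shares of members therefore changed in part by construction. Leaving out the longest runs also gave rho of 0.0344 on 3L and -0.0913 on 2L. Using scores above 25 alone gave 0.983 for close peaks on 3L over 2L, and 0.625 (2L) and 1.37 (3L) for wide peaks over the rest of the arm. Moving the start 500 kb towards the centromere gave 0.673 for 3L members over 3LHet, which no longer passed (adjusted exact p = 0.0801). The proximal stretch of 2L alone, added after the data were seen, gave 0.934 for scores above 25 and 0.999 for close peaks on 3L over 2L. The fullest window of 2L left the distal block in windows of 50 kb (22.4 to 22.45 Mb, 44.0 peaks per 100 kb) and in windows of 100 kb shifted by 50 kb (22.35 to 22.45 Mb, 31 peaks), and in windows of 200 kb the block tied with another. Except where a change follows from the setting itself, the cause was not tested. No paired analysis was possible because the peaks carry no values per library, and for the same reason no replicate could be left out.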

Other observations

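The narrowest peaks of the list were 71 bp wide, and 6 of 230 members on 3L (2.61%) and 11 of 164 members on 2L (6.71%) had this width, against 118 peaks (3.60%) of the whole list. Of the peaks 300 bp or wider, 8 were members on 3L and 5 were members on 2L, of 114 in the list. The lowest score was held by 4 of the 8 on 3L, 2 of the 5 on 2L and 41 of the 114 in the list. Outside the selected stretch, the window with most peaks in the last 2 Mb before the start held 5 peaks on 3L (22.0 to 22.1 Mb, median score 16) and 9 peaks on 2L (20.1 to 20.2 Mb, median score 41).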
